A study of Mus musculus with 8 samples.

Results

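Podocytes are the epithelial cells that wrap the capillaries of the kidney glomerulus, and their interlocking foot processes are bridged by the slit diaphragm, the last layer of the filtration barrier. The genes described here are 7 that are known from these cells, chosen by name and matched to probe sets that the platform annotation assigns to a single gene: Nphs1, Podxl, Synpo, Wt1, Ptpro, Cdkn1c and Thsd7a. All 7 were measured among the 18193 genes of the arrays. Nphs1 (nephrin) is the adhesion protein of the slit diaphragm and Wt1 is the transcription factor that maintains podocyte identity. Podxl (podocalyxin) is the sialomucin that coats foot processes and is also carried by blood vessel endothelium, Synpo (synaptopodin) binds foot process actin, and Ptpro is a receptor tyrosine phosphatase of the podocyte surface. Cdkn1c is an inhibitor of cyclin-dependent kinases found in mature podocytes, and Thsd7a is a membrane protein known as a podocyte autoantigen in membranous nephropathy and also known from endothelium.

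The cells were not sorted as podocytes. They were GFP-positive cells isolated by FACS from collagenase-digested kidneys of FSP1-eGFP mice on a C57BL/6 background, in which GFP follows the promoter of FSP1 (S100a4), a reporter often used to mark fibroblasts but also active in leukocytes. In the 5 ischemic samples, blood flow to the left kidney was stopped with a clamp on its artery and vein for 45 minutes, buprenorphine was given for pain at 0.05 mg/kg, and cells were taken on day 3 of reperfusion. The 3 normal samples came from control kidneys, named both normal and sham in the labels, with no time after surgery given. All mice carried the same reporter, were 6 months old and are labelled male. Amplified RNA from each kidney was hybridised to 1 Affymetrix mouse array. Precision is limited throughout by the number of arrays, 5 and 3. Levels are log2(intensity + 16) after quantile normalization, a scale on which an intensity of 1 becomes 4.09 and on which the differences of dim genes are understated.

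The 8 arrays had median intensities from 24.2 to 33.4. Macrophage genes were bright on every array (mean level of 11 genes 9.34 to 10.57 in ischemic and 8.72 to 9.28 in normal arrays), whereas the mean level of 11 fibroblast genes was 5.55 to 6.72 and 5.27 to 6.37. Against the sex label of 3 arrays, Xist, the RNA of the inactive X chromosome, had an intensity of 2086 in ischemic 1, 607 in ischemic 2 and 2261 in normal 1, and of 6.08 to 16.5 in the other 5. The Y-linked gene Eif2s3y was at a level of 5.84 on both ischemic 1 and normal 1 and at 7.68 to 8.87 on the other 6. Ischemic 2, at 7.78, thus carried both Xist and Y-linked RNA. Kdm5d, also Y-linked, was at 6.86 and 6.35 on ischemic 1 and normal 1 and at 7.50 to 9.20 elsewhere. Uty, Y-linked too, was at 4.41 and 5.01 on these arrays and at 5.36 to 6.81 elsewhere. Ischemic 1 also stood apart across all genes, its correlation with each other array having a median of 0.753, against 0.850 to 0.913 for the rest. On ischemic 1, 8 of 39 olfactory receptor genes, which are mostly silent outside the nose, lay above the median level of all genes, against 1 or 2 on each other array. On normal 1 Eif2s3y and Kdm5d exceeded the 95th percentile of these genes, 5.66, so Y-linked signal was not limited to arrays with low Xist and ischemic 2. On ischemic 1, where that percentile was 8.56, neither did. Differences are therefore given below also for the 5 arrays with low Xist (3 ischemic, 2 normal) and the 3 with high Xist (2 ischemic, 1 normal).

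The defining podocyte genes Nphs1 and Wt1 were near the floor of the arrays. Nphs1 (probe set 1422142_at) had intensities of 15.0, 27.9, 4.86, 14.9 and 8.59 in ischemic 1 to 5 and of 10.9, 11.9 and 14.1 in normal 1 to 3. The groups overlapped, with mean levels of 4.88 ± 0.45 (SD, n = 5) for ischemic and 4.84 ± 0.05 (SD, n = 3) for normal arrays. Ischemic minus normal was 0.034 ± 0.28 (SE), not past the threshold (limma adjusted p = 0.991, 95% interval −0.61 to 0.68; exact permutation p = 0.911, two-sided over all 56 splits). It changed sign among the 5 arrays with low Xist, to −0.16, without ischemic 2, to −0.13, and without ischemic 4, to −0.016. Wt1 (1425995_s_at) had intensities of 83.5, 3.03, 8.21, 1.02 and 3.84 in the ischemic arrays and of 6.98, 1.85 and 6.15 in the normal arrays, so that only ischemic 1 stood out. Ischemic minus normal was 0.44 ± 0.60 (SE), not past the threshold (limma adjusted p = 0.955, 95% interval −0.93 to 1.80; exact permutation p = 0.786). It was −0.062 without ischemic 1. On no array did either gene exceed the 95th percentile of the olfactory receptor genes on that array, a rough reference for background because probe sets respond differently. The set is therefore described below as 7 genes known from podocytes and not as a measure of podocytes.

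**Figure D1:**
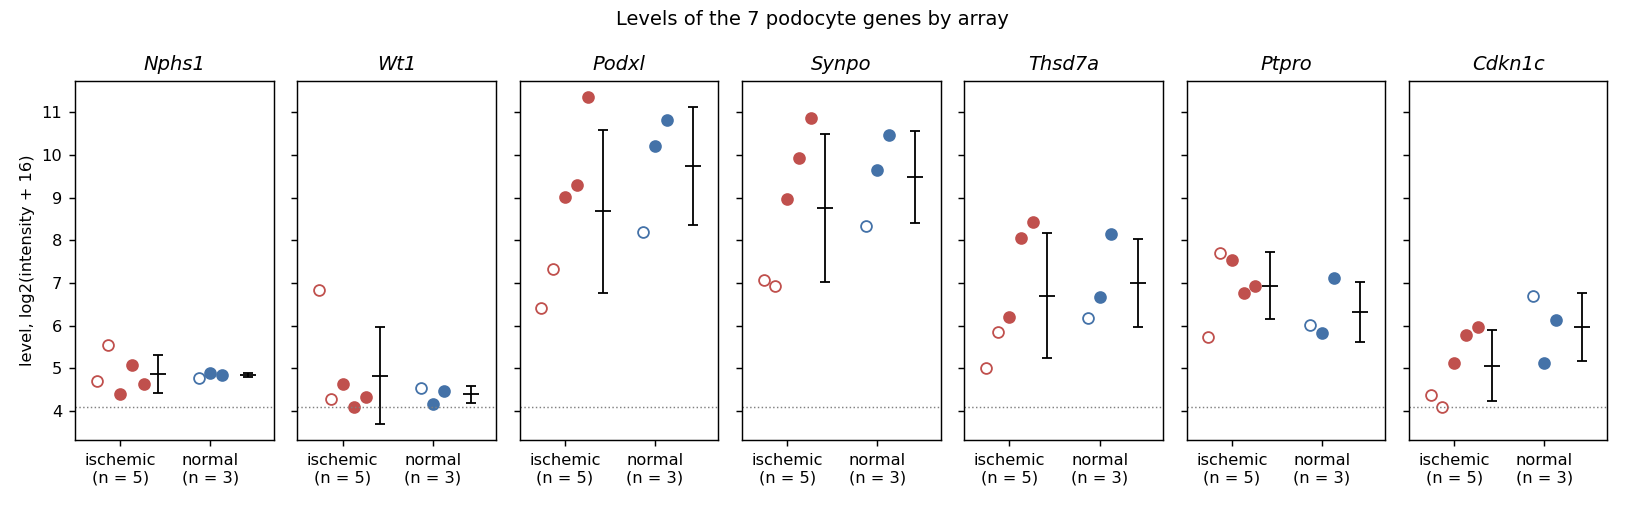
Level of each of the 7 genes, log2(intensity + 16), on the 5 ischemic (red) and 3 normal (blue) arrays; points are arrays, open points the 3 arrays with high Xist, black bars the group mean ± SD, and the dotted line the level of an intensity of 1. Nphs1 and Wt1 lie near the floor apart from Wt1 on ischemic 1 at 6.83, while Podxl runs from 6.41 to 11.35 with the groups overlapping.

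Podxl, Synpo and Thsd7a exceeded that reference on 7, 7 and 6 of the 8 arrays, and they varied widely within both groups. The reference was also exceeded by Ptpro on 7 arrays and by Cdkn1c on 4. Podxl (1448688_at) had levels of 6.41, 7.32, 9.02, 9.31 and 11.35 in ischemic 1 to 5 and of 8.19, 10.21 and 10.82 in normal 1 to 3, with an intensity of 2609 on ischemic 5. Its lowest and its highest array were both ischemic. The mean level was 8.68 ± 1.92 (SD, n = 5) for ischemic and 9.74 ± 1.38 (SD, n = 3) for normal arrays, and their difference, −1.06 ± 1.09 (SE), was not past the threshold (limma adjusted p = 0.951, 95% interval −3.55 to 1.43; exact permutation p = 0.429). In RNA from sorted cells, fewer cells of a type and less RNA per cell cannot be told apart.

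Synpo (1434089_at) had levels of 7.08, 6.92, 8.96, 9.94 and 10.87 in the ischemic arrays and of 8.33, 9.66 and 10.48 in the normal arrays. The normal arrays thus lay within the ischemic range. Ischemic minus normal was −0.73 ± 0.97 (SE), not past the threshold (limma adjusted p = 0.954, 95% interval −2.94 to 1.47; exact permutation p = 0.518). Thsd7a (1456130_at) had levels of 5.00, 5.84, 6.22, 8.05 and 8.43 in the ischemic arrays and of 6.19, 6.66 and 8.15 in the normal arrays. Here too the normal arrays lay within the ischemic range, and ischemic minus normal was −0.29 ± 0.84 (SE), not past the threshold (limma adjusted p = 0.971, 95% interval −2.21 to 1.63; exact permutation p = 0.732). It turned to 0.14 without ischemic 1 and 0.28 without normal 3.

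All 3 genes were highest on ischemic 5 and next highest on normal 3. All 3 were lowest on the arrays with high Xist: Podxl was at most 8.19 there and at least 9.02 on the others, Synpo at most 8.33 and at least 8.96, and Thsd7a at most 6.19 and at least 6.22. Lymphocyte genes parted the same arrays in the other direction. The mean level of 6 measured lymphocyte genes, of 8 listed, was 6.88 to 8.21 on the arrays with high Xist and 4.72 to 5.82 on the others. Their summed intensity was 78.0 to 2033 in ischemic and 112 to 1015 in normal arrays, and 1 of the 6, Nkg7, never exceeded the olfactory receptor reference. The brightest were Cd3e of T cells and Cd79b of B cells, which differed by 0.17 ± 1.11 (SE) and 0.40 ± 0.75 between ischemic and normal arrays. The part of the sex of the cells or of lymphocyte RNA in the levels of Podxl, Synpo and Thsd7a was not tested. Among the 5 arrays with low Xist the differences were −0.62 for Podxl, −0.15 for Synpo and 0.16 for Thsd7a, and among the 3 with high Xist −1.32, −1.32 and −0.76.

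Taken as a mean, endothelial genes followed nearly the same course over the arrays as Podxl and Synpo, and Thsd7a followed it less closely. The mean level of 11 genes of glomerular and other endothelium, among them Tek and Cdh5, was 6.43 to 9.37 in ischemic and 7.33 to 9.11 in normal arrays. Their summed intensity was 1062 to 8822 and 2021 to 8442. Every gene of the list exceeded the olfactory receptor reference on at least 1 array, and the 2 with the highest mean level differed by −1.49 ± 1.06 (SE) for Tek, an angiopoietin receptor, and −1.03 ± 0.99 (SE) for Cdh5, the cadherin of endothelial junctions. Of the 11, 9 were lower in the ischemic arrays, against 45.2% of all genes, with a median difference of −1.13. In limma 0 passed the threshold and 1 was lower at an unadjusted p under 0.05, against 5.02% of all genes. The list mean was also lowest on the arrays with high Xist, at most 7.33 against at least 7.50. Not all genes of the list shared its course. Kdr was at 8.64 on ischemic 1 and at 6.50 and 6.53 on ischemic 2 and 4. Flt1 was at 8.72 on ischemic 1 and 7.93 on normal 2, and Ehd3 was lowest on ischemic 4, at 5.50.

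Set against the endothelial mean of the same array, the spread of Podxl fell from a range of 4.95 to 2.00, that of Synpo from 3.94 to 1.58 and that of Thsd7a from 3.43 to 2.42, whereas that of Ptpro grew from 1.96 to 4.35. This comparison was chosen after the values were seen. Relative to that mean, Podxl stood 1.08 ± 0.77 (SD, n = 5) above it on ischemic and 1.25 ± 0.49 (SD, n = 3) above it on normal arrays, a difference of −0.17 (exact permutation p = 0.768). The relative difference was 0.15 for Synpo, 0.59 for Thsd7a and 1.51 for Ptpro (exact permutation p = 0.732, 0.339 and 0.143). Adjusted over these 4 genes the lowest exact permutation p was 0.571.

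**Figure D2:**
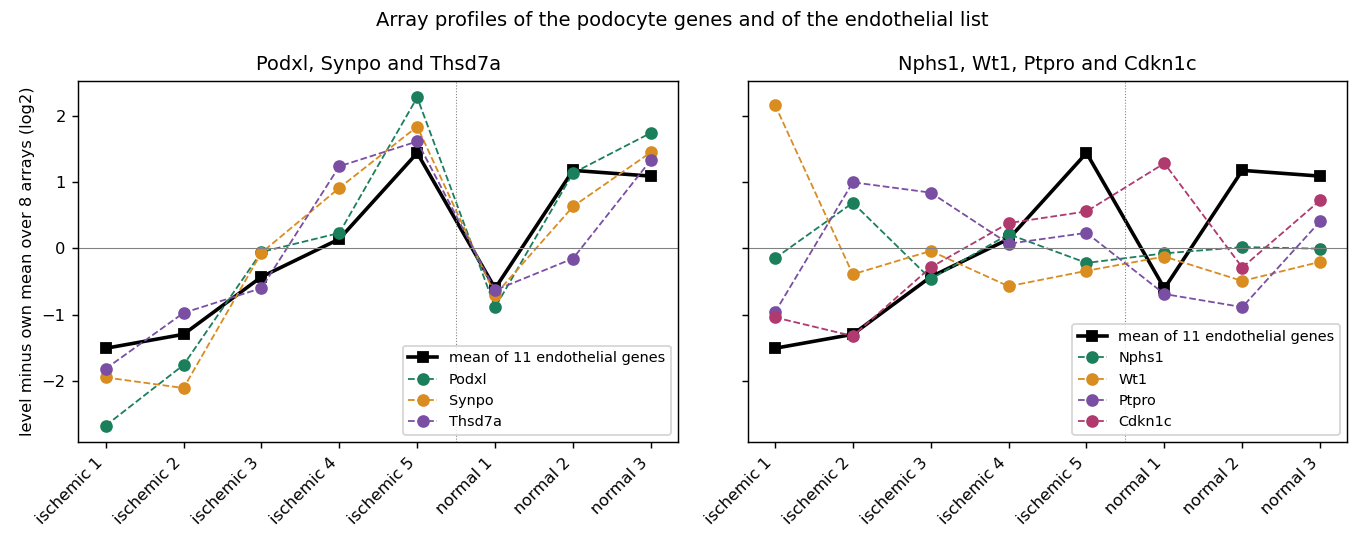
Level of each gene minus its own mean over the 8 arrays (log2, vertical axis) by array (horizontal axis), with the mean of 11 endothelial genes as black squares; a dotted line parts ischemic from normal arrays. In the left panel Podxl and Synpo rise and fall with the endothelial mean, and Thsd7a follows it less closely. On normal 2 Thsd7a, at 6.66, lies below its own mean of 6.82, while the endothelial mean, at 9.11, is near its highest. All are lowest on ischemic 1 and 2 and highest on ischemic 5. Nphs1, Wt1, Ptpro and Cdkn1c in the right panel do not share one course.

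The genes of closest profile were then sought. Likeness was the root mean square difference over the 8 arrays between 2 genes' levels, each centred on its own mean, among genes at or above the median level. The closest to Podxl were Jam2, a junction adhesion molecule, at 0.27, Sema3g, a secreted semaphorin, at 0.27 and Thbd (thrombomodulin), an anticoagulant receptor of the endothelial surface, at 0.31. The closest to Synpo were Tm4sf1, Tspan8 and Ecscr, an endothelial surface protein, at 0.24, 0.28 and 0.30, and the closest to Thsd7a were Pde3a, a cyclic nucleotide phosphodiesterase, Sox6, a transcription factor, and Rhoj at 0.29, 0.34 and 0.35. Among the 21 pairs of the 7 genes, Podxl and Synpo were the closest at 0.46, followed by Synpo and Thsd7a at 0.54. Nphs1 and Ptpro came next at 0.71, ahead of Podxl and Thsd7a at 0.79. The measure is not scaled to a gene's spread, so genes that vary little can score as close. Podxl and Nphs1 stood at 1.72, which mostly reflects the spread of Podxl (SD over the 8 arrays 1.71, against 0.34 for Nphs1). These values describe the 8 arrays, 2 of which (ischemic 5 and normal 3) correlated at 0.976 across all genes.

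Ptpro took another course. Its levels (1417676_a_at) were 5.74, 7.70, 7.55, 6.78 and 6.94 in ischemic 1 to 5 and 6.02, 5.82 and 7.11 in normal 1 to 3. Of the 5 ischemic arrays, 4 lay above 2 of the 3 normal arrays, and ischemic 1 was the lowest of all 8. The means were 6.94 ± 0.78 (SD, n = 5) and 6.32 ± 0.70 (SD, n = 3), and ischemic minus normal was 0.62 ± 0.49 (SE), not past the threshold (limma adjusted p = 0.927, 95% interval −0.50 to 1.75; exact permutation p = 0.321). It was 0.62 among the arrays with low Xist and 0.70 among those with high Xist, positive in both. The genes of closest profile were Mrpl10, a mitochondrial ribosomal protein, at 0.18, Slc30a7, a zinc transporter, at 0.20 and Cd300c2, a receptor of myeloid cells, at 0.22. All 11 macrophage genes had differences above 0, against 54.8% of all genes, with a median of 0.80. In limma 0 of them passed the threshold and 5 were higher at an unadjusted p under 0.05, against 2.11% of all genes. The groups lay apart with ischemic arrays higher in 4, against 1.89%. Their summed intensity was 14416 to 26520 in ischemic and 11262 to 14671 in normal arrays, and none stayed below the olfactory receptor reference on every array. The part of macrophage RNA in the Ptpro level was not tested.

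Sequence upstream of the gene start was at hand for Nphs1, Ptpro and Thsd7a, 3 of the 7 (RefSeq, GRCm38.p6). The 250 bases before the start are shown for Ptpro and Thsd7a, because these measured genes lie on the same chromosome and had different array profiles. Capitals mark matches, on either strand, to GGGCGG (a GC box), CGGAAG (an ETS core) or GCGGGGGC (the site type of EGR1 and WT1), none of which overlapped here.
Ptpro, chr6:137252049-137252298, plus strand: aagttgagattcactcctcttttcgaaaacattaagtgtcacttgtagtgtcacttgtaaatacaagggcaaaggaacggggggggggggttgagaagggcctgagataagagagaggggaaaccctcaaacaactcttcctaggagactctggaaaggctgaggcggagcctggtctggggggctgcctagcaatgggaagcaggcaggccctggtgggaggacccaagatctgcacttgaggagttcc
Thsd7a, chr6:12749254-12749503, minus strand: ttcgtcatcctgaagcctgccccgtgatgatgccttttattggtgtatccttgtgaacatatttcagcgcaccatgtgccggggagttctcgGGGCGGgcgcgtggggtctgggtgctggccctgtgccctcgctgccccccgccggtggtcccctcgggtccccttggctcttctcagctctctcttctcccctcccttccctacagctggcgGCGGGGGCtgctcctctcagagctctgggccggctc

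The Thsd7a window held 1 GC box, which starts 158 bases before the gene start, and 1 match to GCGGGGGC, which starts 36 bases before it. The Ptpro and Nphs1 windows held none of the 3 motifs. Over 32851 such windows of mouse genes, 32.7% held GGGCGG, 13.6% CGGAAG and 4.25% GCGGGGGC. A match describes letters and not binding, and nothing is read from its absence.

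Cdkn1c (1417649_at) was dim, with intensities of 6.80, 1.00, 18.0, 34.6 and 50.4 in the ischemic arrays and of 86.5, 16.9 and 61.3 in the normal arrays. Ischemic 1 and 2 were the lowest and normal 1 the highest, and the groups overlapped. The levels were 5.07 ± 0.83 (SD, n = 5) and 5.98 ± 0.80 (SD, n = 3), and ischemic minus normal was −0.91 ± 0.53 (SE), not past the threshold (limma adjusted p = 0.855, 95% interval −2.13 to 0.30; exact permutation p = 0.179). It was −2.46 among the 3 arrays with high Xist and −0.00090 among the other 5.

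None of the 7 genes passed the threshold, an adjusted limma p of 0.05 over all genes, and 0% of the 18193 genes tested did. None had an unadjusted p under 0.05, against 7.13% of all genes (2.11% higher and 5.02% lower, or 384 and 913 genes; the split was 129 and 1617 when arrays were centred on ribosomal protein genes, a scaling that moved the median difference of all genes from 0.041 to −0.14). In none did the groups lie apart, against 5.33% of all genes (1.89% with ischemic arrays higher and 3.44% lower). Without normal 2 only Cdkn1c of the 7 had groups apart, against 8.62% of all genes, and among the 3 arrays with high Xist 4 of the 7 did, against 67.7%, a share near the background. Of the 7 differences 4 were below 0 and 3 above, against 45.2% and 54.8% of all genes, and their median was −0.29. That median did not hold its sign: it was 0.041 without normal 3, −0.72 without ischemic 5, and 0.034 when each gene was read as its probe sets' average or from its most variable one. The intervals of Podxl, Synpo and Thsd7a each held differences of more than 1 log2 unit in either direction, so these arrays do not show that the genes kept their level.

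**Figure D3:**
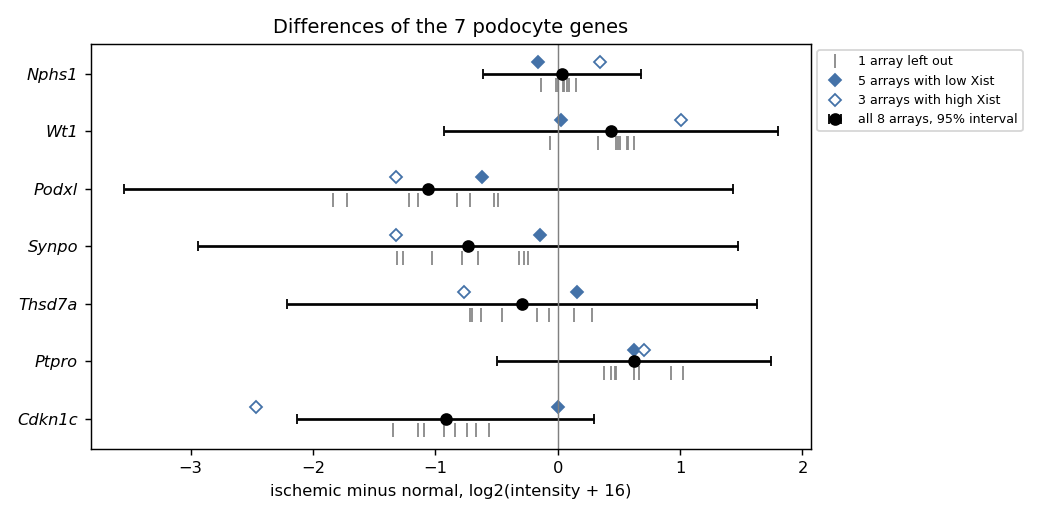
Ischemic minus normal difference of each gene on the log2(intensity + 16) scale (horizontal axis): black points and bars are the limma estimate and 95% interval over all 8 arrays, grey ticks the values with 1 array left out, and diamonds the 5 arrays with low (filled) and the 3 with high Xist (open). Every interval includes 0, and Cdkn1c lies at −2.46 among the arrays with high Xist and near 0 among the others.

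A second probe set existed for 4 of the genes. For Podxl the second (1417396_at) also ran from 4.72 on ischemic 1 to 10.08 on ischemic 5 and differed by −1.52 ± 1.10 (SE). For Ptpro the second (1425863_a_at) differed by 1.29 ± 0.86, with its highest level, 8.39, on ischemic 4. For Thsd7a the second (1456721_at) differed the other way, by 1.14 ± 1.04, with 9.45 on ischemic 4 and 4.46 on normal 1. The second of Synpo (1427045_at) was dim, at 4.30 to 4.44 on ischemic 1 to 4 and 5.90 to 6.53 on ischemic 5 and the 3 normal arrays. Its difference of −1.46 ± 0.43 (SE) had an unadjusted p of 0.00874 and did not pass over all probe sets (limma adjusted p = 0.529), and on this probe set ischemic 5 lay among the normal arrays. The chosen Synpo probe set did not show this division, so the 2 disagree on where ischemic 3 and 4 stand.

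Of 36 further genes of podocytes and the filtration barrier, 31 were measured. None passed the threshold in limma. Of the differences, 26 lay below 0 and 5 above, against 45.2% and 54.8% of all genes, and their median was −0.27. Of the 31, 3 (9.68%) were lower at an unadjusted p under 0.05, against 5.02% of all genes, and 0 were higher. In 7 the olfactory receptor reference was never exceeded: the podocyte transcription factors Lmx1b and Tcf21, Foxd1 of the stromal lineage, the calcium channel Trpc6, the autoantigen Pla2r1, and Rhpn1 and Robo2.

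The 4 brightest of the 31 were Cd2ap, an adaptor of the slit diaphragm that is also widely expressed, Npnt, a matrix ligand of integrins, Sema3g, and Inf2, an actin-nucleating formin. Cd2ap hardly varied, with a difference of −0.20 ± 0.24 (SE). Npnt was at −0.85 ± 0.60 and Inf2 at −0.069 ± 0.35. Sema3g, at −1.02 ± 0.94, ran from 7.32 on ischemic 1 to 11.36 on ischemic 5. Also, named after their values were seen, Cldn5 and Clic5 had a like spread. Cldn5, a tight junction protein of endothelium, ran from 5.67 on ischemic 1 to 10.37 on ischemic 5, and Clic5, a chloride intracellular channel family member of glomerular cells, ran from 5.78 to 10.24 on the same arrays.

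The 3 genes with an unadjusted p under 0.05 were Col4a3, Col4a4 and Arhgap24, named after their values were seen, and none passed over all genes. Col4a3 and Col4a4 encode chains of the type IV collagen network of the glomerular basement membrane, which is made by podocytes and is also present in distal tubule basement membranes. Col4a3 had levels of 4.89, 4.93, 6.11, 4.42 and 7.64 in the ischemic arrays and of 9.38, 7.62 and 7.85 in the normal arrays, overlapping only through ischemic 5, and differed by −2.68 ± 0.75 (SE, limma adjusted p = 0.322). Col4a4 had levels of 5.19, 5.85, 5.93, 5.85 and 6.64 in the ischemic arrays and of 8.52, 7.21 and 7.38 in the normal arrays, with the groups apart, and differed by −1.81 ± 0.40 (SE, limma adjusted p = 0.183). Arhgap24, a Rac-inactivating protein of podocytes, had levels of 4.66, 5.85, 7.22, 6.02 and 6.41 in the ischemic arrays and of 8.96, 8.73 and 7.31 in the normal arrays. It differed by −2.30 ± 0.59 (SE, limma adjusted p = 0.242), also with the groups apart, but narrowly so between ischemic 3 and normal 3. Col4a4 and Arhgap24 were the 2 of the 31 genes (6.45%) with groups apart and ischemic arrays lower, against 3.44% of all genes.

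Among the arrays with low Xist the 3 differences were −1.68, −1.16 and −1.47, and among those with high Xist −4.47, −3.00 and −3.70. The genes were picked for their differences over these same 8 arrays, so the sign within each set is no further support. The distal nephron list was lower in ischemic arrays too, with all 9 measured genes below 0, against 45.2% of all genes. Its mean level was 5.61 to 6.86 in ischemic and 8.22 to 8.40 in normal arrays, and its summed intensity 563 to 1412 against 5438 to 6423. The 12 proximal tubule genes were all below 0 as well (mean level 5.99 to 8.08 against 9.27 to 11.04, summed intensity 1485 to 4877 against 13402 to 31781). In limma 0 genes of either list passed the threshold. One of the 9 distal genes and none of the 12 proximal ones stayed below the olfactory receptor reference on every array. The part of tubule RNA in these 3 values was not tested.

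**Figure D4:**
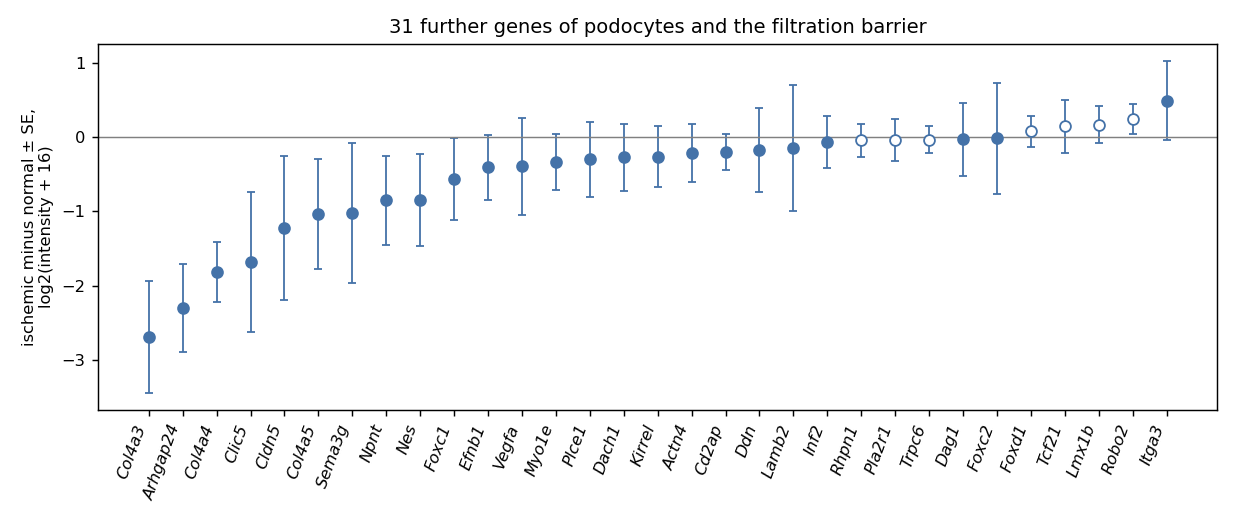
Ischemic minus normal difference ± SE on the log2(intensity + 16) scale (vertical axis) for 31 further genes of podocytes and the filtration barrier, sorted by difference; open points are the 7 genes that never exceeded the olfactory receptor reference. Col4a3, Arhgap24 and Col4a4 stand lowest, at −2.68, −2.30 and −1.81, and 20 of the 31 genes lie within 1 SE of 0.

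The neighbouring cell types of the glomerulus and kidney surface were read in the same way. Of 8 mesangial and mural genes 7 lay above 0, against 54.8% of all genes. Their median difference was 0.27, with 0 past the threshold. Their 2 brightest members were Rgs5 at 0.036 ± 1.04 (SE) and Gata3 at 0.11 ± 0.47. Of 6 parietal epithelial genes, 5 lay below 0, against 45.2% of all genes, with a median of −0.73. In limma 0 passed the threshold, and 3 were lower at an unadjusted p under 0.05, against 5.02% of all genes. These 3, named after their values were seen, were the transcription factor Pax8 at −1.43 ± 0.48 (SE), the keratin Krt8 at −1.39 ± 0.45, with the groups apart, and the tight junction protein Cldn1 at −1.21 ± 0.44. Krt8 was the 1 of the 6 with groups apart, against 3.44% of all genes with ischemic arrays lower in this way. Its nearest arrays were ischemic 3 at 6.75 and normal 3 at 6.84. The 2 brightest were Cd24a at −0.25 ± 0.39 and Akap12 at 0.18 ± 0.86, and the keratin Krt18 was at −0.056 ± 0.63. The part of tubule RNA in the values of Pax8, Krt8 and Cldn1 was not tested. Of 6 mesothelial genes, a cell type that also expresses Wt1, 5 never exceeded the olfactory receptor reference. Krt19 and Msln (the 2 brightest) were at 1.38 ± 0.72 (SE) and 0.25 ± 0.57. The list mean was highest, at 5.66, on ischemic 1, the array with the highest Wt1. There Krt19 was at 8.31 and Msln at 7.07, both below that array's reference of 8.56, and Upk3b and Bnc1 were at 4.16 and 4.21. Krt19 was also at 7.76 on ischemic 4, where Wt1 was lowest, at 4.10. The part of mesothelial RNA in the Wt1 value was not tested.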

How the data were processed

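The deposited values of the 8 Affymetrix arrays are linear intensities, 1 per probe set. Per the labels' protocols, RNA of the sorted cells (Qiagen miRNeasy) was amplified by NuGEN WT-Ovation Pico and labelled by NuGEN FL-Ovation. How the authors summarised and scaled the intensities is not given in the sources used here, nor is a genome build for the probe sets.

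Intensities were taken as log2(value + 16) and quantile normalized without the 64 control probe sets. Of 45101 probe sets 34945 had 1 gene symbol, and each gene was read from whichever of its probe sets had the highest mean, with no filter on brightness. Ischemic and normal arrays, grouped by title, were compared with limma 3.58.1 in R 4.3.3 over 18193 genes. P-values were adjusted by Benjamini-Hochberg, with a threshold of 0.05. A test on simulated data came first, with 200 genes changed among those at or above the median level. It recovered 3.6% of 2-fold and 47.6% of 4-fold changes, and 4.99% of the genes called were false. Single genes were also compared by a two-sided exact permutation test, whose smallest p is 0.0179. The labels describe separate kidneys, so p-values measure the spread between arrays of different kidneys. Figures were drawn with matplotlib 3.10.9.

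The members, gene lists and rules were chosen with earlier results of these data known. All 7 members are named, with, of the 31 further podocyte genes, those past the threshold or else the 4 brightest. A further gene that the rule names is not reported here. The 2 brightest genes are named for the endothelial, mesangial, parietal, mesothelial and lymphocyte lists, as are the 3 closest in profile to each bright member. The olfactory receptor reference and genes said to be so were chosen after values were seen.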

Additional observations from a re-analysis of the deposited data

Results flagged for a closer look

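Wt1 on ischemic 1 stood far from the other ischemic arrays. Its level was 6.83, and the next highest of the 5 ischemic arrays was 4.63, a gap of 0.806 of the whole range against a critical value of 0.710. Of 17 genes checked in this way it was the single one to pass, and chance flags about 1 group in 20. On the same array 8 of 39 olfactory receptor genes lay above the median level of all genes, and their 95th percentile was 8.56, above the Wt1 level. The part of that array's quality in the Wt1 value was not tested.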

How the results depend on the processing

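Under 23 alternatives 0 of the 7 genes passed the limma threshold, and the lowest adjusted p of any was 0.515. The sign held in each of these for Podxl (−2.16 to −0.49), Synpo (−1.83 to −0.15), Ptpro (0.38 to 1.29) and Cdkn1c (−2.46 to −0.00090). The filters on dim genes removed Nphs1, Wt1 and Cdkn1c, which have no value there. Nphs1 reversed with arrays centred on ribosomal protein genes (−0.090), a pseudocount of 1 (−0.045), array weights (−0.10) and the low Xist arrays (−0.16), and ran from −0.13 to 0.15 with 1 array left out. Thsd7a reversed with the mean of all probe sets (0.43), the probe set of largest interquartile range (1.14) and the low Xist arrays (0.16), and ran from −0.72 to 0.28 with 1 array left out. Wt1 ran from −0.062 to 0.62 with 1 array left out. Relative to the endothelial mean of each array, a measure added after the data were seen, Synpo (0.15) and Thsd7a (0.59) reversed and Podxl and Ptpro did not. The cause of these changes was not tested. Genes passing over the whole array, 0 in the main setting, numbered 156 with ribosomal centring, 31 with an intensity trend, 15 above the 40th percentile, 5 with array weights, 2 without normalization, 2 with the mean of probe sets, 1 with a pseudocount of 1 and 0 to 113 with 1 array left out. Genes of the 7 with groups apart numbered 0 to 1 with 1 array left out (6.89% to 14.1% of all genes) and 4 among the 3 high Xist arrays, where 67.7% of all genes lay apart. The median of the 7 ran from −0.72 to 0.041 with 1 array left out. With the replicate number as a block the median of the 7 was −1.31 in place of −0.29. Numbers 4 and 5 have no normal array, so ischemic 4 and 5 did not enter that difference. They were the highest ischemic arrays for Podxl, Synpo and Thsd7a, so this shift cannot be read as an effect of pairing. Pairing by number was not seen: the correlations of same-numbered deviations were 0.16, −0.088 and 0.10, and the block passed 0 genes. So few correlations cannot exclude it.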
